A study of Rattus norvegicus with 27 samples.

Results

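The genes described are 8 phosphatases of the Dusp family, Dusp3, Dusp4, Dusp5, Dusp6, Dusp7, Dusp8, Dusp10 and Dusp14, in the medial prefrontal cortex (mPFC) of the rat. They were chosen by symbol, as the rows of the count table that carry these names, and all 8 had a row of their own among 36865 rows, of which 15078 held at least 1 read. Dusp7 was also on the study's list of genes tied to its elevated plus-maze summary measure, and that list was drawn from these same libraries. The libraries came from 27 adult male Wistar rats, 1 library per rat, which the labels place in 1 group without a control group. The rats had gone repeatedly through 3 anxiety tests, the elevated plus-maze, the open field and the light-dark box, and were killed in a resting state, straight from the home cage, early in their active period. The labels give learned helplessness as the treatment of every sample and list acoustic startle and fear conditioning beside the anxiety tests, whereas the paper describes the anxiety battery for these rats. Behavioural scores of single rats were not used here, so what follows concerns the level of each phosphatase, its spread between rats, and its relation to Fos and Arc.

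Dual specificity phosphatases remove phosphate from both the threonine and the tyrosine of the activation loop of MAP kinases and so switch these kinases off. Several of them are themselves transcribed when the ERK kinase cascade is active, which makes them feedback inhibitors, and in neurons some respond to synaptic activity as immediate early genes do. The family divides by place and target. Dusp4 and Dusp5 are inducible nuclear enzymes, Dusp6 and Dusp7 are cytoplasmic and prefer ERK, Dusp8 and Dusp10 prefer the stress kinases JNK and p38, and Dusp3 and Dusp14 are small enzymes without the kinase-binding domain of the others, usually classed as atypical. Fos, a transcription factor, and Arc, a protein of the synapse, are immediate early genes used as markers of recent neuronal activity.

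The libraries held 4907255 to 12771309 counted reads (median 8168801). The totals parted at the number in the library name. The 16 libraries numbered up to 31 held at most 8568317 reads and the 11 numbered from 32 held at least 9404220. These are sets of libraries and not groups of the study, and the labels do not say what the number stands for. The male Wistar rats came as a pair of cohorts, and the cohort of each library was not used here, so cohort and library number cannot be told apart. Library 3 stood apart, with a median Spearman rho of 0.964 with the other libraries over 11730 genes, against 0.983 for the next lowest and 0.991 for the highest. Of 46 markers of 12 cell types, 0 were without reads in any library. The excitatory neuron marker Slc17a7 had a mean of 11183 normalized counts and the inhibitory neuron marker Gad1 a mean of 2683, while the summed level of 5 oligodendrocyte markers ranged from 14905 to 56082 between libraries. In such tissue, fewer cells of a type and less RNA per cell cannot be told apart.

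Levels are given as normalized counts, the reads divided by a size factor of the library. They are not divided by transcript length, so they compare libraries and not genes. Of 11730 genes with 10 or more reads per library on average, 89.8% varied between rats by more than counting error (chi-square test against Poisson counts, adjusted over these genes), and 7 of the 8 phosphatases did so. Dusp10 was the exception, with an adjusted p of 0.23. The SD of log2 values was 0.40 for Dusp5, 0.39 for Dusp4, 0.27 for Dusp8, 0.25 for Dusp6 and for Dusp10, 0.16 for Dusp14, 0.13 for Dusp7 and 0.08 for Dusp3, against a median of 0.19 over all these genes. Dusp4 and Dusp5 thus varied most and Dusp3 least. For comparison, this SD was 0.63 for Fos and 0.55 for Arc.

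**Figure D1:**
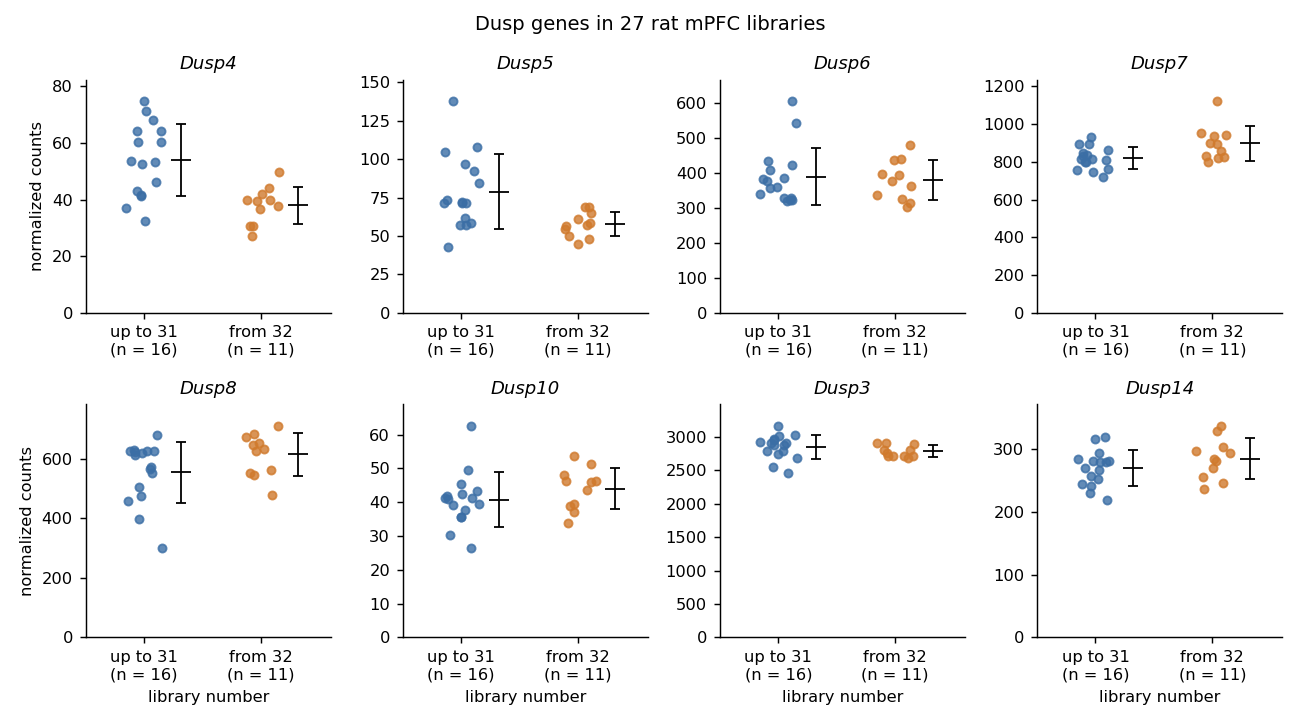
Normalized counts of the 8 Dusp genes (y axis, from 0) in libraries numbered up to 31 (blue, n = 16) and from 32 (orange, n = 11), 1 point per library, with the mean and SD beside each set. Dusp4 and Dusp5 had means of 54 and 79 in the first set and of 38 and 57.6 in the second, with overlapping ranges in all 8 panels.

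Dusp4 acts in the nucleus on ERK and JNK. Its level was 27.1 normalized counts in the lowest library (39), 43.1 at the median and 74.9 in the highest (library 3), from 30 to 61 reads. Counting error made up 27.7% of its variance. The libraries with the highest values, 3, 18, 20, 5 and 28, all belonged to the set up to 31.

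Dusp5, which acts on ERK in the nucleus, had 43.1 normalized counts in the lowest library (5), 65.1 at the median and 138 in the highest (library 3), from 39 to 96 reads. After library 3 came libraries 18, 24 and 31 with 108, 105 and 97.1. Counting error made up 15.2% of the variance.

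Both genes were lower in the set from 32. Dusp4 ranged from 32.4 to 74.9 with a median of 53.5 up to 31, and from 27.1 to 49.6 with a median of 39.5 from 32, a log2 difference of -0.50 ± 0.124 (SE, edgeR adjusted p = 0.00516). Dusp5 ranged from 43.1 to 138 with a median of 72 up to 31, and from 45 to 69 with a median of 57.4 from 32, a log2 difference of -0.44 ± 0.134 (edgeR adjusted p = 0.0201). For each gene the sets overlapped, yet all 11 libraries from 32 lay below the median of the set up to 31. Both differences passed the test without each of the 27 libraries in turn, with highest adjusted p of 0.0121 for Dusp4 and 0.0392 for Dusp5, and without library 3 they were -0.46 and -0.37. The background was high, since 9.05% of 11716 genes were lower from 32, 8.82% were higher and 17.9% passed in either direction. Depth, and whatever else goes with the library number, cannot be told apart here.

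Dusp5 followed Fos. Its log2 level rose by 0.27 ± 0.0607 (SE, n = 27) per SD of log2 Fos (edgeR adjusted p = 0.0484), where 0.277% of 11920 genes passed this test, all upward. Spearman's rho was 0.675 (permutation p = 0.00018) and Pearson's r 0.635 (permutation p = 0.00038). Within the set up to 31 rho was 0.521 (p = 0.0412, permutation) and r 0.468 (p = 0.0686, permutation), and within the set from 32 they were 0.755 (p = 0.00969, permutation) and 0.818 (p = 0.00256, permutation). Without the 2 libraries farthest from the median Fos, 52 and 31, r was 0.568 (permutation p = 0.00296), and without library 3 rho was 0.649. The direction was therefore the same in every one of these subsets. The call across all genes was close to the threshold. With the library-number set as a covariate the slope was 0.21 ± 0.0653 with an unadjusted p of 0.00381 and an edgeR adjusted p of 0.86, and the call was lost without any 1 of 21 of the 27 libraries, the adjusted p ranging from 0.0185 without library 12 to 0.116 without library 3. Of 9 alternatives 3 kept the call. Besides the set covariate, it was lost without libraries 52 and 31 (0.27, edgeR adjusted p = 0.166), without a filter (slope 0.26, edgeR adjusted p = 0.0614), with the oligodendrocyte (0.27, edgeR adjusted p = 0.0585) or striatal neuron (0.26, edgeR adjusted p = 0.0558) marker score as a covariate, and with a score over the activity genes in place of Fos (slope 0.17, edgeR adjusted p = 1).

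Several other activity genes had a higher rho with Dusp5 than Fos had, a difference that was not tested. It was 0.807 with Junb, a partner of Fos in the AP-1 factor, 0.718 with Ier2 and 0.708 with Egr2, and with Junb it was 0.741 and 0.927 within the sets. With all remaining activity genes the rho of Dusp5 was lower than with Fos, from -0.0311 with Egr1 to 0.54 with Btg2. With Arc its rho was 0.227 (permutation p = 0.253) over all libraries, 0.132 up to 31 and 0.727 from 32. Whether that relation differs between the sets was not tested. Fos and Arc themselves had a rho of 0.69, with 0.659 up to 31 and 0.945 from 32. The relations of a gene to Fos and to Arc are therefore not separate facts. Whether any phosphatase followed 1 of them more than the other was not tested. Among 9846 genes that averaged 50 or more normalized counts, the 3 whose ranks over the 27 libraries were most like those of Dusp5 were Junb, Cct3 (rho 0.784) and Actr3 (rho 0.763). Within the set from 32, Cct3 and Actr3 had a rho of only 0.318 and 0.264.

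Dusp4 rose by 0.21 ± 0.0681 on the log2 scale per SD of Fos, which did not pass the test (edgeR adjusted p = 0.141). Its rho with Fos was 0.559 (permutation p = 0.00296) and r was 0.512 (permutation p = 0.00625). Within the sets rho was 0.247 (permutation p = 0.356) and 0.518 (permutation p = 0.106), r 0.288 and 0.409, and with the mean of each set taken out rho was 0.341 (permutation p = 0.0815). Part of the pooled relation thus lay between the sets, where Fos itself had means of 257 up to 31 and 173 from 32. Without libraries 52 and 31, r was 0.505 (permutation p = 0.0107). With Arc its rho was 0.2 (permutation p = 0.315). The gene most like Dusp4 was Ptpre, a receptor-type tyrosine phosphatase, with a rho of 0.869 over all libraries, 0.747 up to 31 and 0.782 from 32. Morn5 (0.769) and Ezh2 (0.758) came next, but within the set from 32 they had only 0.218 and 0.473.

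**Figure D2:**
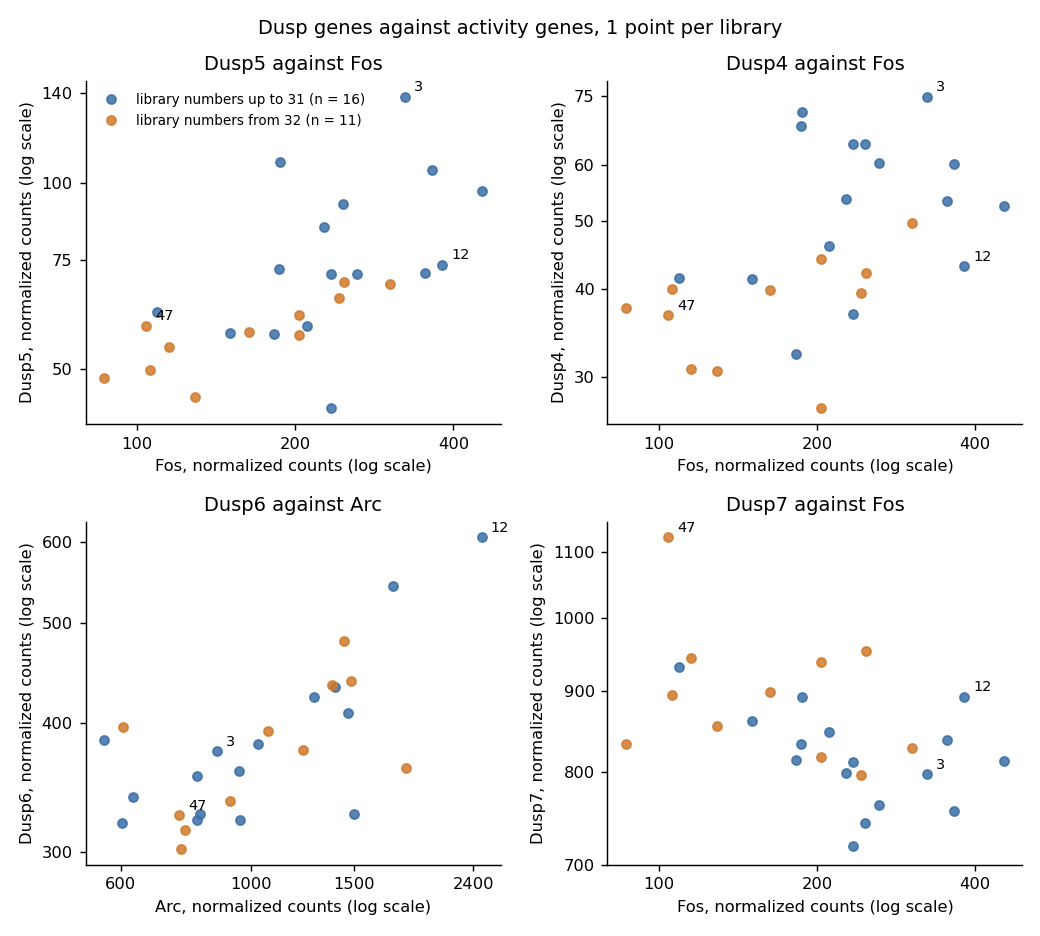
Normalized counts of Dusp5, Dusp4 and Dusp7 against Fos and of Dusp6 against Arc, both axes on log scales, 1 point per library, with libraries 3, 12 and 47 numbered. Dusp5 and Dusp4 were higher in libraries with more Fos (rho 0.675 and 0.559), Dusp6 in those with more Arc (rho 0.622), and Dusp7 was lower in libraries with more Fos (rho -0.531).

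Dusp6, the cytoplasmic phosphatase of ERK, had 302 normalized counts in the lowest library (52), 376 at the median and 606 in the highest (library 12), with 543 in library 31 and 481 in library 53. Counting error made up 7.66% of its variance. The sets overlapped, with medians of 368 up to 31 and 377 from 32 and a log2 difference of -0.04 ± 0.0943 (edgeR adjusted p = 0.821).

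Dusp6 followed Arc. It rose by 0.18 ± 0.0334 on the log2 scale per SD of Arc (edgeR adjusted p = 0.0128), and was 1 of the 0.0753% of 11960 genes that passed. Its rho with Arc was 0.622 (permutation p = 0.00071) and r 0.698 (permutation p = 8e-05). Within the sets rho was 0.603 (permutation p = 0.0158) and 0.536 (permutation p = 0.0919), and r 0.757 (permutation p = 0.00063) and 0.582 (permutation p = 0.0612). With the set as a covariate the slope was again 0.18 and the edgeR adjusted p 0.0105. Libraries 12 and 31 had both the highest Dusp6 and high Arc, 2481 and 1754 normalized counts. Without library 12 the slope was 0.14 ± 0.0364 (edgeR adjusted p = 0.372), without library 31 it was 0.16 ± 0.0336 (edgeR adjusted p = 0.0609), and the call was kept without each of the other 25. Without the 2 libraries farthest from the median Arc, 12 and 51, r was 0.661 (permutation p = 0.00038), but the slope, 0.16, no longer passed (edgeR adjusted p = 0.17). With a score over the activity genes in place of Arc the slope was 0.17 and did not pass either (edgeR adjusted p = 0.0771), while the other 7 of 9 alternatives kept the call.

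The slope of Dusp6 on Fos was 0.14 ± 0.0393 (edgeR adjusted p = 0.0803), with a rho of 0.432 (permutation p = 0.0248) and an r of 0.538 (permutation p = 0.00355). DESeq2's Wald test gave it an adjusted p of 0.0365. Within the sets rho was 0.356 and 0.627 and r 0.544 and 0.656, and without libraries 52 and 31 rho was 0.285 (permutation p = 0.166) and r 0.391 (permutation p = 0.0517), so the relation to Fos rests in part on those libraries. With the library-number set as a covariate the slope was 0.17 ± 0.0439 with an unadjusted p of 0.000556 and an edgeR adjusted p of 0.369, and with the set means taken out rho was 0.529 (permutation p = 0.00535). All 11 activity genes had a positive rho with Dusp6, over all libraries and within each set. The genes most like it were Mex3b, an RNA-binding protein gene (rho 0.739), Rasl11a (0.698) and Gypc (0.658), and Mex3b had 0.676 and 0.745 within the sets.

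Dusp7, the other cytoplasmic phosphatase of ERK, varied little. It had 719 normalized counts in the lowest library (19), 833 at the median and 1123 in the highest (library 47), and the next highest value was 953. It was higher from 32, with a range of 797 to 1123 and a median of 894, than up to 31, with a range of 719 to 931 and a median of 814, a log2 difference of 0.13 ± 0.0463 (edgeR adjusted p = 0.0448). The ranges overlapped, and 10 of the 11 libraries from 32 lay above the median of the set up to 31. This call was lost without any 1 of 15 of the 27 libraries, with the highest adjusted p, 0.105, without library 53, and it was lost with the oligodendrocyte marker score as a covariate (edgeR adjusted p = 0.0567).

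The relation of Dusp7 to Fos had the opposite sign to that of Dusp5. Its slope was -0.07 ± 0.0231 per SD of Fos (edgeR adjusted p = 0.163), its rho -0.531 (permutation p = 0.0048) and its r -0.508 (permutation p = 0.00602). Without library 47, which had the highest Dusp7, the slope was -0.04 (edgeR adjusted p = 0.421). Within the sets rho was -0.412 (permutation p = 0.114) and -0.264 (permutation p = 0.435), r was -0.39 and -0.342, and without libraries 52 and 31 r was -0.579 (permutation p = 0.00218). With the mean of each set taken out rho was -0.33 (permutation p = 0.093), and with the set as a covariate the slope was -0.05 (edgeR adjusted p = 0.874). The relation had the same sign in both sets but was not shown within either. With Arc its rho was -0.0604 (permutation p = 0.766). The genes most like Dusp7 were Prrt2, which encodes a presynaptic protein (rho 0.834), Trim3 (0.81) and Olfm2 (0.806).

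**Figure D3:**
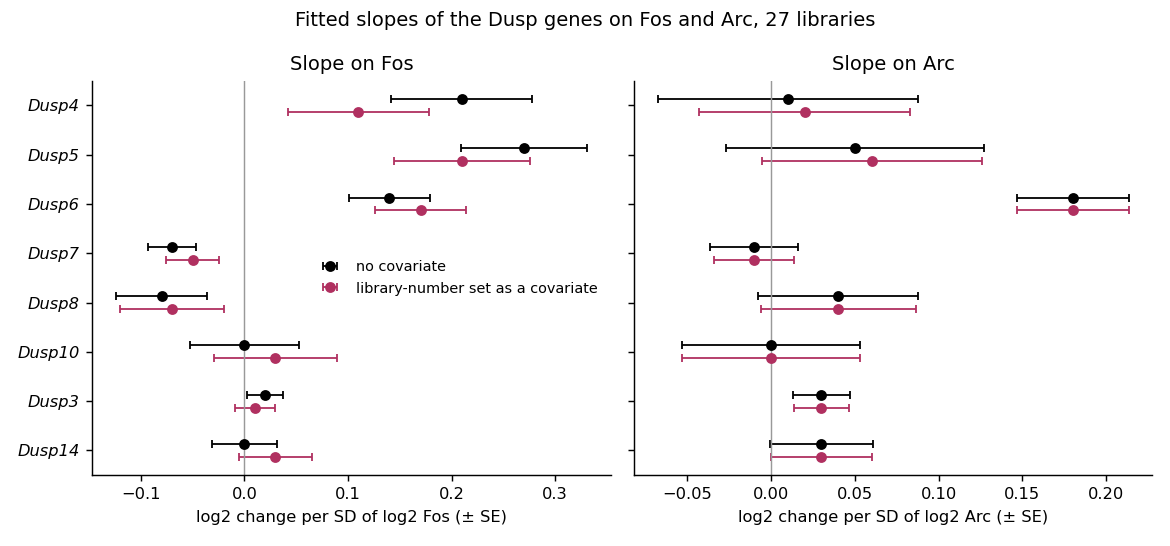
Fitted log2 change of each Dusp gene per SD of log2 Fos (left) or log2 Arc (right), with bars of 1 SE, without a covariate (black) and with the library-number set as a covariate (red), n = 27 libraries. The slopes on Fos went from -0.08 for Dusp8 to 0.27 for Dusp5, and on Arc Dusp6 stood at 0.18 with either fit.

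The promoters of Dusp5 and Dusp6 are shown because these genes followed an activity gene and because Fos and its relatives are induced through known promoter elements, and that of Dusp7 is shown for comparison. The RefSeq windows of the GRCr8 assembly hold 250 bases before and 50 after a transcription start, and 9 windows covered 7 of the 8 genes, all but Dusp4. They were searched on both strands for the cAMP response element TGACGTCA, its shorter form TGACG, the AP-1 site TGANTCA, the CArG box bound by serum response factor and the EGR1 site GCGTGGGCG. Any full cAMP response element also holds the shorter form. The bases upstream of the annotated gene start are printed from the plus strand for Dusp5 (chr1:262543524-262543773), Dusp6 (chr7:35979354-35979501, shorter because the gene start lies before the window's transcription start) and Dusp7 (chr8:115887841-115888090), with matches in capitals.
Dusp5: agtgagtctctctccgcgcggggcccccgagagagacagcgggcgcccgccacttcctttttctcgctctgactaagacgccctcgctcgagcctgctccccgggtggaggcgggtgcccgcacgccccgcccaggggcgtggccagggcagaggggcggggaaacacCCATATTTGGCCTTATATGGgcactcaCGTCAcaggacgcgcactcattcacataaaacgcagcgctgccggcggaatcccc
Dusp6: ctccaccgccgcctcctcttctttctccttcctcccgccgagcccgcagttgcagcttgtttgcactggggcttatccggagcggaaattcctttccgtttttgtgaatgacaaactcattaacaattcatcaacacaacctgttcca
Dusp7: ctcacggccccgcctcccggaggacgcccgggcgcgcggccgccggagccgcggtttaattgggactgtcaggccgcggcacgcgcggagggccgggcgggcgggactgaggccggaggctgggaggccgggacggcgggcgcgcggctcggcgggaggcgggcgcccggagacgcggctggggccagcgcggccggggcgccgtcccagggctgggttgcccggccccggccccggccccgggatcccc

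The Dusp5 window held 2 CArG boxes that directly follow each other, beginning 82 and 72 bases before the start, and the shorter cAMP response element on the opposite strand. Among all 33469 windows, 1.64% held a CArG box, 0.0209% held more than 1, and 21.2% held the shorter element. The full windows of Dusp6, Dusp7, Dusp8 and Dusp10 held no match. That of Dusp3 held 1 shorter element, and 1 of the 3 windows of Dusp14 held a shorter element and an AP-1 site, which 7.33% of all windows held. The full cAMP response element (1.83% of windows) and the EGR1 site (0.544%) were in none of the 9. Of the activity genes, all but Fos and Arc were searched in the same way. Egr1 had 2 CArG boxes and Egr2 had 1, and Ier2 and Btg2 each had 1 full cAMP response element. A match is a description of letters and not of binding.

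Dusp8 and Dusp10 act on JNK and p38. Dusp8 had 300 normalized counts in library 3, far below the 399 of library 18, which came next, with a median of 619 and a highest value of 713 in library 52. Counting error was 6.67% of its variance. The sets overlapped, with medians of 595 and 633 and a log2 difference of 0.15 ± 0.0888 (edgeR adjusted p = 0.262). Its slopes did not pass the test on Fos (-0.08 ± 0.044, edgeR adjusted p = 0.437) or Arc (0.04 ± 0.0475, edgeR adjusted p = 0.891). Its rho with Fos was -0.363 (permutation p = 0.0621), and r was -0.355 (permutation p = 0.0674), with a rho of -0.141 up to 31 and -0.509 from 32 and an r of -0.27 without libraries 52 and 31.

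Among the genes whose ranks were most like those of Dusp8 were Crtc1, which encodes a coactivator of CREB, with a rho of 0.911, and Nlgn2, which encodes an adhesion protein of inhibitory synapses, with 0.893. Within the sets the rho with Crtc1 was 0.882 and 0.864, and without library 3 it was 0.901. These genes were chosen as the most alike, so the values are a description.

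Dusp10 had 26.3 normalized counts in library 24, a median of 41.3 and 62.7 in library 3, from 24 to 69 reads. Counting error equalled 79.6% of its variance, so its differences between rats were not detectable beyond counting at this depth. Its slopes were 0.00 on both Fos and Arc, with SE of 0.0523 and 0.0533 (edgeR adjusted p = 0.993 and 0.99). Its closest gene was Agpat4 (rho 0.711), followed by Snrpn (0.662) and Rbbp9 (0.637). From 32 the rho was 0.736 with Agpat4, 0.345 with Snrpn and 0.436 with Rbbp9.

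Dusp3 and Dusp14 are the small atypical members. Dusp3 was the steadiest of the 8, with 2465 normalized counts in library 18, a median of 2812 and 3171 in library 26, a range of 1.29-fold. Its slope on Fos was 0.02 ± 0.0175 (edgeR adjusted p = 0.782) and on Arc 0.03 ± 0.0171 (edgeR adjusted p = 0.753). With Arc its rho was 0.302 (permutation p = 0.126) and its r 0.384 (permutation p = 0.0476) over all libraries, but rho was 0.574 (permutation p = 0.0231) up to 31 and -0.409 (permutation p = 0.212) from 32, so no relation held across both sets. Without libraries 12 and 51, r was 0.426 (permutation p = 0.0333). The difference between the sets was not tested for Arc. Mertk, the receptor tyrosine kinase that serves the uptake of dying cells, was most like it (rho 0.744), before Slco3a1 (0.726) and Ptpn9 (0.725). From 32 the rho was 0.764 with Mertk, 0.164 with Slco3a1 and 0.482 with Ptpn9.

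Dusp14 had 219 normalized counts in library 5, a median of 280 and 338 in library 32. Its slope was 0.00 ± 0.0314 on Fos (edgeR adjusted p = 0.98) and 0.03 ± 0.0306 on Arc (edgeR adjusted p = 0.85), and the sets did not differ past the threshold (0.08 ± 0.0604, edgeR adjusted p = 0.39). It had its highest rho among activity genes with Egr4, 0.505, which was 0.424 and 0.509 within the sets. Tmem163, a zinc transport protein gene (rho 0.75), Olfm2 (0.733) and Got1 (0.722) were most like it. Olfm2 was also among the 3 genes most like Dusp7.

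**Figure D4:**
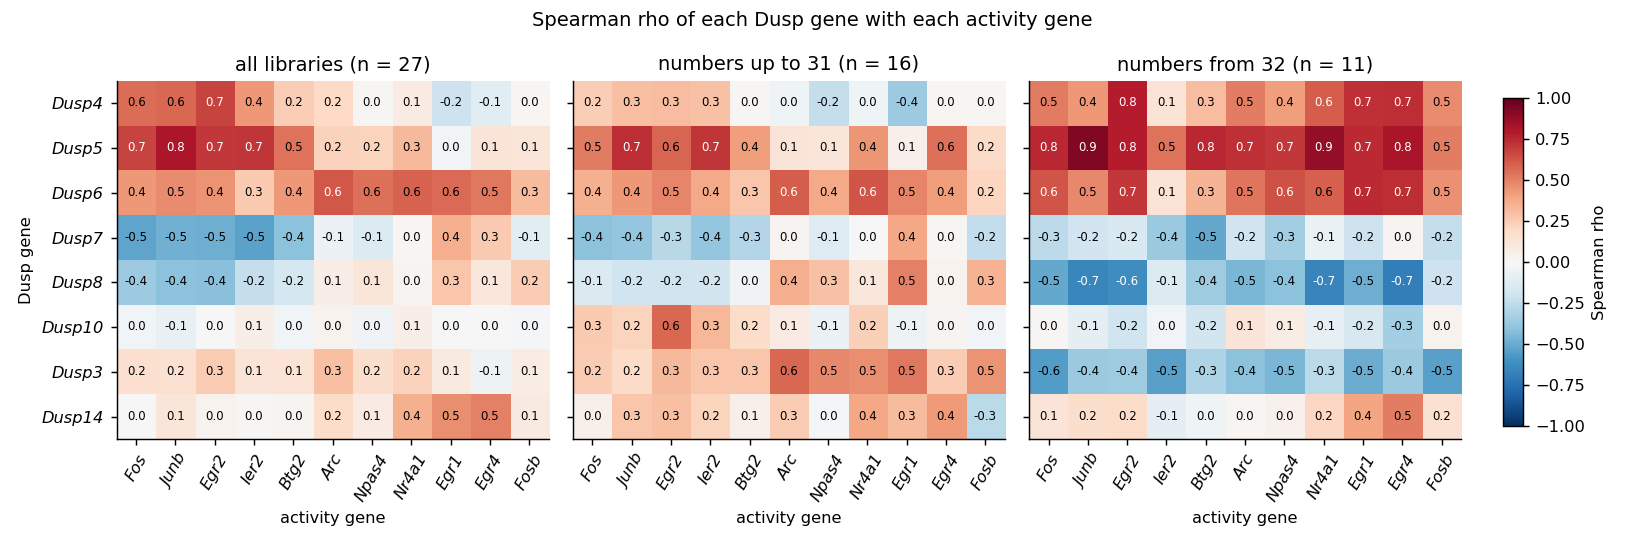
Spearman rho of each Dusp gene (rows) with each of 11 activity genes (columns) over all 27 libraries and within the sets up to 31 and from 32, red for positive and blue for negative values. Dusp5 and Dusp6 were positive with all 11 activity genes within each set, Dusp5 reaching 0.927 with Junb from 32. Dusp3 with Fos had 0.25 up to 31 (permutation p = 0.35) and -0.555 from 32 (permutation p = 0.0823). Its slopes on Fos did not differ between the sets past the threshold (edgeR adjusted p = 0.999).

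The 8 genes did not share 1 common ranking of the libraries, since pairs went both ways, from -0.595 to 0.636. A median over pairs of both signs does not measure how strong the relations were, and pairs of other genes were not compared. Over the 28 pairs of members the median rho was 0.00915, 5 pairs reached an absolute value of 0.4, and 2 of the 28, Dusp5 with Dusp8 and Dusp5 with Dusp14, reached it in both sets with the same sign. Dusp4 and Dusp5 shared the highest value, 0.636, with 0.576 and 0.391 within the sets. Dusp5 and Dusp8 ran against each other, with -0.595 over all libraries, -0.503 up to 31, -0.773 from 32 and -0.547 without library 3. Dusp7 and Dusp14 had 0.475, Dusp6 and Dusp14 0.421, and Dusp5 and Dusp7 -0.417. Dusp5 and Dusp14 had 0.418 up to 31 and 0.436 from 32, but 0.183 over all libraries. The pair of Dusp6 and Dusp7, similar enzymes by place and target, had 0.139. All pairs share the same libraries and size factors.

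No phosphatase had a slope on Fos that differed between the sets past the threshold. The test of that difference passed for 0% of 12107 genes in edgeR, with 572 genes and 0 of the 8 phosphatases at an unadjusted p under 0.05, and no other tool was run. The difference of slopes, from 32 minus up to 31, was -0.07 ± 0.134 for Dusp5, with a 95% interval from -0.33 to 0.20, and -0.01 ± 0.0518 for Dusp7, with an interval from -0.11 to 0.09.

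The phosphatases were fitted in the same way on marker scores of 4 of the 12 cell types. The other cell types, among them astrocytes and all neurons but striatal ones, were compared by rho alone. Slopes on marker scores, the mean of the standardised log2 levels of a list, passed the test for 1.32% of genes with oligodendrocyte markers, 2.54% with meningeal fibroblast markers, 0.0915% with striatal neuron markers and 0.399% with microglia markers. In edgeR 0 of the 8 phosphatases passed in any of the 4, and only Dusp10 with oligodendrocytes (0.14 ± 0.0462 per SD of the score, edgeR adjusted p = 0.186) and Dusp14 with microglia (-0.06 ± 0.0302, edgeR adjusted p = 0.592) had an unadjusted p under 0.05. So did 1265 of 11959 genes with the oligodendrocyte score and 960 of 12022 with the microglia score, so neither phosphatase stands out. The rho of Dusp10 with the oligodendrocyte score was 0.516 over all libraries, 0.191 up to 31 and 0.6 from 32. With the oligodendrocyte precursor score, which was not fitted, rho was 0.485 for Dusp8, with 0.632 and 0.491 within the sets. It was 0.447 for Dusp3, with 0.444 and 0.564, and -0.399 for Dusp5, with -0.429 and -0.655. Dusp7 had 0.377 with the upper-layer neuron score, 0.762 up to 31 and -0.136 from 32. These values were picked from many and were not tested. The summed oligodendrocyte markers had medians of 23592 up to 31 and 29723 from 32, and the summed striatal markers 2435 and 2594. Of the 46 markers, 2 passed the test between the sets, a smaller share than the 17.9% of all 11716 genes that did. Both were higher from 32, namely Ntng2 of the claustrum list (0.58, edgeR adjusted p = 3.57e-06) and Slc32a1, the transporter of inhibitory neurons (0.22, edgeR adjusted p = 0.00439). Their part in the set differences of Dusp4, Dusp5 and Dusp7 was not tested. With the oligodendrocyte score as a covariate the set differences of Dusp4 and Dusp5 were -0.52 and -0.47, and that of Dusp7 was 0.13 and no longer passed (edgeR adjusted p = 0.0567).

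Dusp1, the best known immediate early gene of the family, was among 4 other MAP kinase phosphatases examined for context. It ranged from 345 to 975 normalized counts and rose by 0.33 ± 0.0322 per SD of Fos (edgeR adjusted p = 6.62e-08) and by 0.27 ± 0.0478 per SD of Arc (edgeR adjusted p = 0.00479). Dusp2, Dusp9 and Dusp16 did not pass either test, with slopes on Fos of 0.02, -0.01 and 0.07. Of 9 further dual specificity phosphatases tested, among them Dusp26 and Dusp15, 0 passed with Fos in edgeR or DESeq2 and 0 had an unadjusted p under 0.05. With Arc 0 passed in either tool and 1 had an unadjusted p under 0.05. Over all genes 0.277% of 11920 passed with Fos in edgeR and 0.0753% of 11960 with Arc. An unadjusted p under 0.05 was found for 1573 and 768 genes, so these counts are near the background.

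Of 11920 genes 0.277% passed the test with Fos in edgeR, and 239 genes passed in DESeq2. An unadjusted p under 0.05 was found in edgeR for 1573 genes and for 4 of the 8 phosphatases. These counts over all genes are the background of every list below. None of the tested kinases on which these phosphatases act passed, and 0 in lists this short is near the background. In the ERK cascade 0 of 9 tested genes passed in edgeR or DESeq2, 0 at an unadjusted p under 0.05, and Mapk3, which encodes an ERK kinase, had a slope of -0.03. Among kinases of the JNK and p38 cascades 0 of 10 passed in either tool, 1 at an unadjusted p under 0.05, and of the 2 ERK5 kinases 0 passed in either tool, 0 at an unadjusted p under 0.05. Of 7 tested feedback inhibitors of the Sprouty and Spred families and their like, 0 passed in either tool and 2 had an unadjusted p under 0.05. Spry4, which like Dusp6 is a target of ERK signalling, had a slope of 0.10 ± 0.0446 on Fos and 0.16 ± 0.039 on Arc (edgeR adjusted p = 0.3 and 0.286). Of 8 transcription factors that respond to ERK 0 passed in either tool and 2 had an unadjusted p under 0.05, and the largest slope on Fos was that of Fosl2, 0.26 ± 0.0826 (edgeR adjusted p = 0.125). Median slopes on Fos were 0.02 in the ERK cascade, -0.03 among JNK and p38 kinases, 0.04 among feedback inhibitors and 0.01 among the transcription factors and among the 8 phosphatases, against 0.31 for the 10 activity genes tested and 0.00 for all genes.

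Between the library-number sets, Araf of the ERK cascade was lower from 32 (-0.14, edgeR adjusted p = 0.0264). The p38 kinase genes Mapk11 (0.30, edgeR adjusted p = 0.00305) and Mapk14 (0.13, edgeR adjusted p = 0.0127) were higher. Fosl2 fell by 0.61 on the log2 scale from 32 (edgeR adjusted p = 0.00826), Srf by 0.19 (edgeR adjusted p = 0.00143) and Egr2 by 0.74 (edgeR adjusted p = 0.0197), while Etv4 and Egr4 were higher by 0.46 and 0.41 (edgeR adjusted p = 0.00565 and 0.0192).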

How the data were processed

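Bilateral mPFC tissue of 27 rats was sequenced as polyA RNA. The authors deposited raw counts, the reads they counted on each gene per library, without normalization. The submitters' processing notes name Trimmomatic, STAR and HTSeq; versions, genome build, annotation and strandedness are not given in the sources used here, so reads of overlapping or near-identical genes cannot be assigned with certainty. The labels name a TruSeq kit and the paper another kit and section. Nothing says that libraries of 1 set were prepared together.

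Counts were divided by median-of-ratios size factors (DESeq2 1.42.0) for levels, and log2(normalized count + 1) was used for correlations. Slopes on the standardised log2 level of Fos, Arc or a marker score (mean of standardised log2 levels), and differences between library-number sets, were fitted over all genes with edgeR 4.0.16 (filterByExpr, TMM, robust quasi-likelihood test) with Benjamini-Hochberg adjustment over all genes tested and a threshold of 0.05. Fos, Arc or the markers were left out of their own fit. Calls use the adjusted p. P-values measure the spread between rats. Spread beyond counting was tested against a Poisson distribution for genes averaging 10 or more reads, which covers counting error only, since reads without molecular identifiers are not independent molecules. For 8 genes against Fos and Arc, 16 relations, Spearman's rho and Pearson's r were computed with two-sided permutation tests (100000 permutations), unadjusted; the adjusted p over all genes is that of edgeR. Tested on simulated counts of 11292 genes, of which 200 followed Fos by 0.3 on the log2 scale per SD, edgeR recovered 185 with 10 false calls; for the set difference at 0.5 it recovered 157 with 6.

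The members and gene lists were chosen with earlier results of these data known. Genes named are the members, Fos and Arc, those of the lists, and for each member the 3 genes with the highest rho among genes averaging 50 or more normalized counts. Of the 12 genes listed for the ERK cascade, Ksr1 had no single row. Some genes that this rule names are not reported here. Alternatives were another scaling, no filter, DESeq2's Wald test, another pseudocount, covariates, a score over 11 activity genes and leaving libraries out. Leaving out each library in turn, and library 3 for the correlations, was chosen after seeing the data. Promoter sequences and gene positions are from RefSeq (GRCr8). Software was R 4.3.3 and Python 3.11.15 with scipy 1.17.1.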

Additional observations from a re-analysis of the deposited data

How the results depend on the processing

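Of 176 slopes and set differences of the 8 phosphatases under alternatives that keep every library or leave out the 2 farthest, 158 kept their direction and side of the threshold, 9 lost the call and 1 gained it. Most of the 176 were not called in the main fit, so keeping their side says little. Of the called ones, Dusp5 with Fos kept the call in 3 of 9 alternatives and Dusp6 with Arc in 7 of 9. The set differences of Dusp4 and Dusp5 kept it in 4 of 4, and that of Dusp7 in 3 of 4. With Fos 33 genes passed, and 239 did with DESeq2's Wald test, 14 with the library-number set as a covariate, 20 with the oligodendrocyte score, 12 without the 2 farthest libraries and 4 with the activity gene score in place of Fos. Of the phosphatases 1 passed with Fos; 2 passed with DESeq2's Wald test, and 0 without a filter, with the set, oligodendrocyte or striatal covariate, without the 2 farthest libraries or with the activity gene score. With Arc 9 genes and 1 phosphatase passed, 3 and 0 without the 2 farthest libraries, and 4 and 0 with the activity gene score. Without single libraries the counts ranged from 13 (without library 26) to 310 (without library 12) for Fos, from 6 to 11 for Arc and from 1802 to 2451 against 2093 for the sets, and those of phosphatases from 0 to 2, 0 to 1 and 2 to 3. For Fos the count was more than 1.5 times higher without library 12, 51 (230), 54 (122), 34 (108) or 18 (77), and more than 1.5 times lower, at most 21, without any 1 of 13 other libraries, library 3 (17) among them. The cause was not tested.

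The 8 slopes that changed sign were all uncalled and near 0. On Fos, Dusp14 had -0.000349 without a filter and -0.0151 without the 2 farthest libraries, and Dusp10 0.0186 without them and 0.0322 with the set covariate. On Arc, Dusp10 had -0.0156 with the oligodendrocyte score, -0.0012 with the striatal score and -0.0158 with the activity gene score, which gave Dusp8 -0.0104. Of 64 correlations 57 kept sign and side, 3 lost significance, and 4 with Fos changed sign. With the set regressed out rho was -0.0781 for Dusp3, 0.143 for Dusp10 and 0.0922 for Dusp14, and without the 2 farthest libraries it was 0.0608 for Dusp10. Counts of genes with spread beyond counting were 10537, 11160 without a filter and 10541 with TMM. Dusp4, Dusp5 and Dusp10 had fewer than 100 reads in every library, which limits their precision. No paired analysis was possible because the samples form 1 group.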
